A study of Mus musculus with 9 samples.

Results

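The genes described here encode the pore subunits of voltage-gated calcium channels, grouped by current type into L (Cacna1c, Cacna1d), P/Q (Cacna1a), N (Cacna1b), R (Cacna1e) and T (Cacna1g, Cacna1h, Cacna1i). They were measured in mouse hippocampus, the brain region that lays down new spatial and episodic memories. The list holds 8 genes, and 7 of them had a probe set that names no other gene, out of 18820 genes measured this way. Cacna1d was named only on a probe set that also names another gene, so its level is not reported and the L type rests on Cacna1c alone. Each of the 7 genes had 1 such probe set. The choice of the probe set with the highest mean therefore decided nothing among them.

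The groups were mice given Maresin 1 before surgery (Surgery+Maresin1), mice with surgery alone (Surgery) and control mice, with 3 arrays each that the titles call biological replicates. Surgery was a tibia fracture, and Maresin 1 is a mediator derived from the fatty acid DHA that helps to end inflammation. All mice were C57BL/6 and 12 to 14 weeks old, and hippocampi were taken 72 h after surgery. The labels used here give no dose or route for Maresin 1 and do not say whether control mice had anaesthesia or a sham operation. The series asks whether Maresin 1 lowers neuroinflammation in mice with cognitive disorders around surgery, and the comparisons below ask what happened to the channel genes.

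Voltage-gated calcium channels open when the membrane depolarises and let calcium into the cell. The pore subunit carries the voltage sensors and the ion path. In L-, P/Q-, N- and R-type channels, beta and alpha-2-delta subunits bring the channel to the membrane and tune it. L-type channels on cell bodies and dendrites couple activity to gene transcription, P/Q- and N-type channels at the active zone trigger transmitter release, and R-type channels contribute to release and to calcium signals in spines. T-type channels open at voltages near rest and drive rebound bursts. Cacna1i encodes the T-type pore with the slowest kinetics, known for its high expression in the reticular thalamus.

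The promoter of Cacna1i is shown because it was the member whose arrays separated most between groups, and that of Cacna1b because this member varied least over the 9 arrays. The sequences come from RefSeq, build GRCm38.p6, from 250 bases before to 50 bases after an annotated start, written 5′ to 3′ on the gene's strand. They lie at chr15:80286988-80287287 (plus strand) for Cacna1i and chr2:24763103-24763402 (minus strand) for Cacna1b, both at or near the 5′ end of the gene as RefSeq annotates it. Capitals mark GC boxes, the letters GGGCGG or CCGCCC, which the factor Sp1 is known to bind.
Cacna1i: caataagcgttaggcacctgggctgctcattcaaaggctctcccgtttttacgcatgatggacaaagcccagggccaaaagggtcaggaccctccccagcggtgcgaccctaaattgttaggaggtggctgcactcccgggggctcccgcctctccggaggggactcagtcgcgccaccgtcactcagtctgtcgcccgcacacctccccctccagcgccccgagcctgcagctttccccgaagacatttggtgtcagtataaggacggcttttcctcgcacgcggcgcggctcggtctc
Cacna1b: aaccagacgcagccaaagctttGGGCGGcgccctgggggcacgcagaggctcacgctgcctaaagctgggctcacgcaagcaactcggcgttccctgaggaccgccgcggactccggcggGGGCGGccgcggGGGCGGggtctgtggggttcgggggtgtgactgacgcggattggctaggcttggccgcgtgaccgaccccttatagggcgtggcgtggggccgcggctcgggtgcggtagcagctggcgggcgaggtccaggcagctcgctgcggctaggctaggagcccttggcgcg
The Cacna1i window held 0 GC boxes, and the Cacna1b window held 3. A GC box stood in 35.7% of the 32851 promoter windows of this length. The cyclic AMP response element TGACGTCA, which reads the same on both strands, was in neither of these windows and in 1.79% of all windows. CG dinucleotides numbered 23 in the Cacna1i window and 35 in that of Cacna1b, against a median of 7 over all windows. The arrays measured no property of the promoters themselves, so these letters are context for the genes and not a result of the comparison.

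Levels are log2(signal + 16) after quantile normalization, and they compare arrays for 1 gene, not genes with each other. The mean level of each of the 7 genes lay above 5.86, the 95th percentile of 990 olfactory receptor genes, taken as a background because they work in the nose. The other L-type pore genes of the family are Cacna1s, of skeletal muscle, and Cacna1f, of the retina. Their mean levels were 5.65 and 5.19, below that mark. Means above the same mark were found for 4 of 4 measured CA1 pyramidal, 5 of 5 CA3 pyramidal, 6 of 6 dentate granule and 4 of 4 pan-neuronal genes. The mark was also passed by 13363 of all 18820 genes, and by 6 of 6 thalamic and 6 of 6 neocortical markers. Passing it therefore does not tell the hippocampus from its neighbours. The deposited array medians ran from 54.1 to 100.1. Control replicates 2 and 3 stood apart in genes of the choroid plexus, which makes the fluid of the ventricles: the summed signal of 8 of its markers was 12514 and 15540.3 in these arrays, 796 in control replicate 1 and 699 to 1046 in the 6 arrays of operated mice.

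Cacna1i had the lowest levels in the hippocampi of Maresin 1-treated mice. Its log2 levels were 9.30, 9.21 and 9.13 after surgery with Maresin 1, 9.41, 9.49 and 9.44 after surgery alone, and 9.59, 9.57 and 9.45 in control. The 3 Maresin 1 arrays lay below all 6 others, and the surgery and control arrays overlapped. Deposited signals before normalization were 609, 539 and 535 with Maresin 1, 469, 827 and 809 after surgery, and 1032, 562 and 618 in control. On that scale the groups overlapped. Surgery replicate 1, the lowest of the 9 deposited values for Cacna1i, came from the array with the lowest median signal.

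Cacna1g and Cacna1h, the other T-type pore genes, did not separate the groups. Cacna1g, which carries the burst current of thalamic relay neurons, was at 9.06, 8.88 and 9.07 with Maresin 1, 9.10, 9.27 and 9.06 after surgery, and 9.23, 9.02 and 9.10 in control. Maresin 1 replicate 2 was the lowest array and surgery replicate 2 the highest. The Maresin 1 and surgery arrays of Cacna1g overlapped narrowly, with Maresin 1 replicate 3 at 9.066 and surgery replicate 3 at 9.059. Cacna1h, found in dendrites, sensory neurons and smooth muscle, was at 9.93, 9.79 and 9.89 with Maresin 1, 9.85, 9.94 and 9.83 after surgery, and 9.95, 10.03 and 9.91 in control. All its groups overlapped.

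Cacna1c encodes the main L-type pore of hippocampal neurons, which signals to the nucleus. Its levels were 9.70, 9.89 and 9.90 with Maresin 1, 9.80, 9.72 and 9.82 after surgery, and 9.92, 9.998 and 9.84 in control. The surgery arrays lay below the control arrays, and the Maresin 1 arrays spanned both.

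The presynaptic and spine channel genes had SDs over the 9 arrays of 0.082 (Cacna1a), 0.064 (Cacna1b) and 0.085 (Cacna1e). Cacna1a, the P/Q-type pore that triggers fast release at most central synapses, was at 10.63, 10.54 and 10.67 with Maresin 1, 10.62, 10.57 and 10.68 after surgery, and 10.82, 10.69 and 10.67 in control. Control replicate 1 was its highest array. Cacna1b, the N-type pore that shares release with P/Q channels, was at 10.16, 10.19 and 10.33 with Maresin 1, 10.24, 10.22 and 10.27 after surgery, and 10.36, 10.22 and 10.27 in control. Cacna1e, the R-type pore, was at 10.75, 10.84 and 11.01 with Maresin 1, 10.77, 10.85 and 10.92 after surgery, and 10.92, 10.76 and 10.85 in control. The arrays of all groups overlapped for Cacna1b and Cacna1e. Those of Cacna1a overlapped narrowly, with control replicate 3 at 10.6699, Maresin 1 replicate 3 at 10.6701 and surgery replicate 3 at 10.6773.

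**Figure D1:**
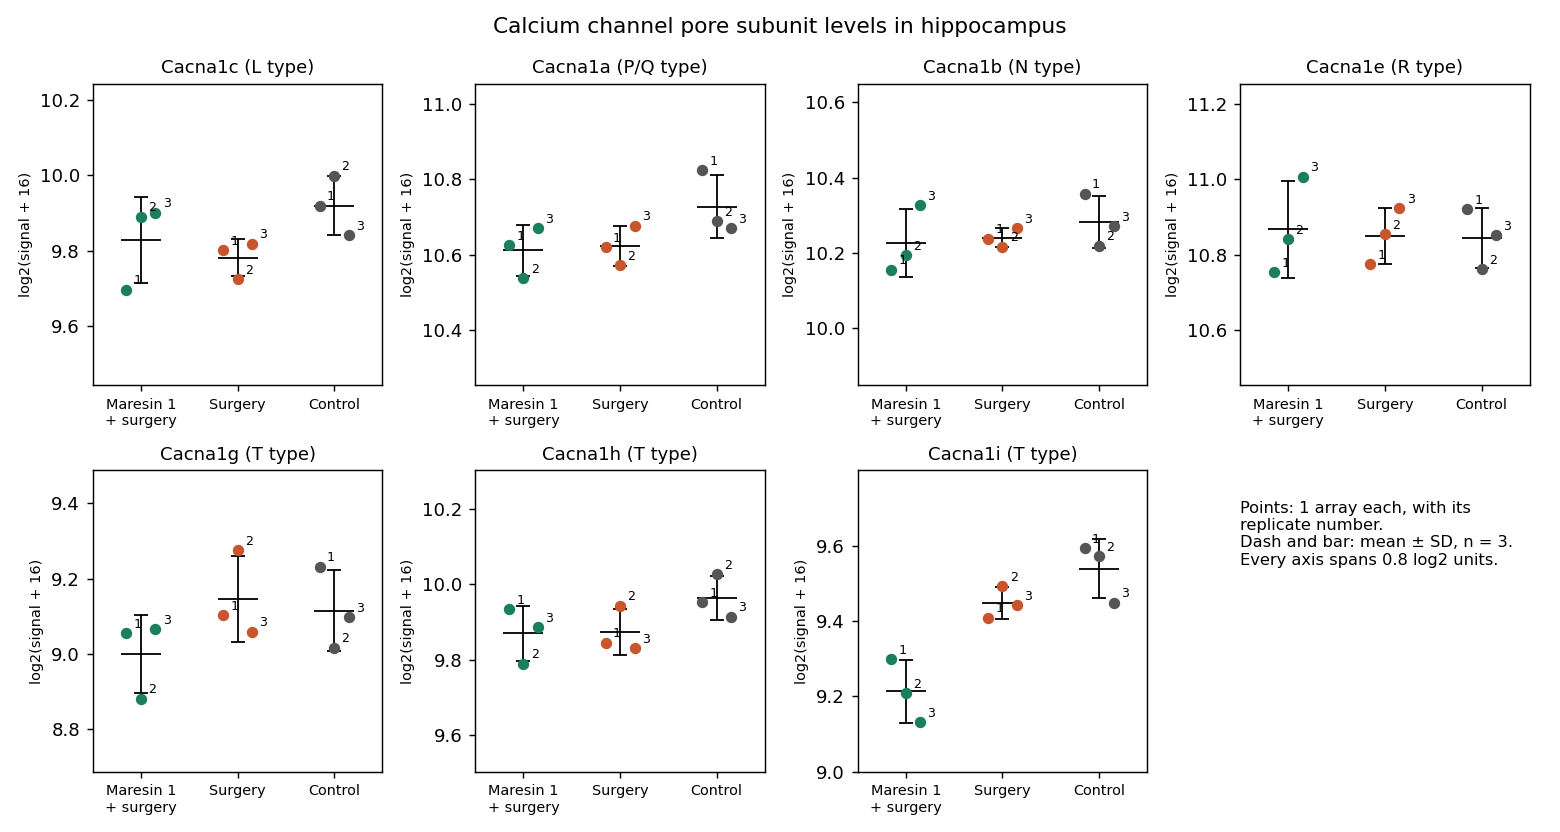
Levels of 7 pore subunit genes on the log2(signal + 16) scale (vertical axis, 1 panel per gene), by group from left to right: Maresin 1 with surgery, surgery and control. Points are single arrays with their replicate numbers, and dashes with bars are means ± SD (n = 3). In the Cacna1i panel the Maresin 1 arrays, at 9.13 to 9.30, lie below all others, while in most other panels the groups overlap.

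Spread over the 9 arrays also set Cacna1i apart in size. Its SD was 0.16 on the log2 scale, which exceeded that of 80.0% of all genes, whereas the SD of Cacna1b, 0.064, exceeded that of 10.7%. The other 5 members lay between, from 0.073 for Cacna1h to 0.12 for Cacna1g. Within groups the residual SD of Cacna1i was 0.071, close to the 0.067 of Cacna1b and the 0.065 of Cacna1h.

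In the comparison of Maresin 1 with surgery alone both groups were operated. The titles name no vehicle for surgery alone, so the compound and its administration are not separated. Cacna1i averaged 9.21 ± 0.08 with Maresin 1 and 9.45 ± 0.04 after surgery (SD, n = 3 each), a difference of -0.24 (SE 0.063, 95% interval -0.37 to -0.10), or 0.850-fold. limma gave an unadjusted p of 0.0026, the 40th smallest of all genes, and adjusted p = 0.859. It did not pass the threshold of 0.05. In bulk tissue, fewer cells that express a gene and less of its RNA per cell cannot be told apart.

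Cacna1g stood at 9.001 ± 0.10 with Maresin 1 and 9.15 ± 0.11 after surgery, a difference of -0.14 (SE 0.080, 95% interval -0.32 to 0.03). The remaining 5 members differed by between -0.01 and 0.05, with 95% intervals that each lay between 0.910-fold and 1.14-fold. For Cacna1h the difference was 0.00 (95% interval -0.13 to 0.12). The mean over T-type genes of the deviation from each gene's 9-array mean was -0.10 ± 0.07 with Maresin 1 and 0.03 ± 0.07 after surgery. Its arrays did not overlap, but narrowly, with Maresin 1 replicate 1 at -0.034 and surgery replicate 3 at -0.019. Within the T type that difference of -0.13 was carried by Cacna1i and Cacna1g, with Cacna1h near 0.

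limma called 0 of 7 members between Maresin 1 and surgery, beside 0% of all genes. At an unadjusted p under 0.05 there was 1 member, Cacna1i, on the lower side, where 3.7% of all genes lay. The groups did not overlap for 1 member, again Cacna1i, and lower values without overlap made up 8.2% of all genes. Of the 7 members 5 were lower with Maresin 1, against 58.3% of all genes, with a median difference of -0.01 for the members and -0.02 for all genes. The place of the family among all genes depended on the scaling. With arrays brought to one median, the members' median was -0.18 and the all-gene median -0.09, and 0 of 7 members lay above the all-gene value. With no normalization the medians were -0.07 for the members and -0.0019 for all genes, again with 0 of 7 members above it, whereas with cyclic loess both were -0.01 and 3 of 7 lay above. Cacna1c and Cacna1e, higher after quantile normalization, were lower at -0.11 and -0.15 with one median and at -0.0028 and -0.05 with no normalization.

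The comparison of Maresin 1 with control covers surgery and treatment together. Cacna1i averaged 9.21 ± 0.08 with Maresin 1 and 9.54 ± 0.08 in control (SD, n = 3 each). The difference was -0.33 (SE 0.063, 95% interval -0.46 to -0.19), or 0.798-fold, with the 43rd smallest p of all genes (unadjusted p = 0.0002, adjusted p = 0.0832 by limma). It lay just outside the threshold, and only 1.16% of genes had a lower difference. Over 21 other settings it ran from -0.38 to -0.29, and adjusted p from 0.0633 to 1.00. With control replicates 2 and 3, those with high choroid plexus signal, both left out, it was -0.38 (adjusted p = 0.181). The control arm was then 1 array, assumed to vary like the other groups, and that array was the highest of the 9 for Cacna1i.

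The other members differed from control by less. Cacna1a averaged 10.61 ± 0.07 with Maresin 1 and 10.73 ± 0.08 in control, a difference of -0.12 (SE 0.055, 95% interval -0.24 to 0.00, adjusted p = 0.446). Differences were -0.11 for Cacna1g, -0.09 for Cacna1h, -0.09 for Cacna1c, -0.06 for Cacna1b and 0.02 for Cacna1e. All 6 of these 95% intervals held 0. Their lowest bound, for Cacna1g, was 0.819-fold, and their highest, for Cacna1e, was 1.12-fold. The mean over the T-type genes, with Cacna1i among them, differed from control by -0.18, and its arrays did not overlap.

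Of the 7 members 0 were called between Maresin 1 and control, beside 0.085% of all genes. At an unadjusted p under 0.05 there was 1 lower member, Cacna1i, against 5.61% of all genes. Lower values without overlap were found for Cacna1i alone, against 6.71% of all genes. In sum 6 of 7 members were lower, against 51% of all genes, with a median of -0.09 for the members and 0.00 for all genes. Cacna1e was the exception, and its sign turned in 5 of 21 other settings. The other 6 kept their sign in all 21.

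The comparison of surgery with control covers what differed between operated and control mice at 72 h, and the labels do not separate the fracture from anaesthesia or handling. Cacna1c averaged 9.78 ± 0.05 after surgery and 9.92 ± 0.08 in control (SD, n = 3 each), a difference of -0.14 (SE 0.066, 95% interval -0.28 to 0.00, adjusted p = 0.794 by limma). Cacna1a stood at 10.62 ± 0.05 after surgery and 10.73 ± 0.08 in control, a difference of -0.10 (SE 0.055, adjusted p = 0.796). Cacna1h and Cacna1i each differed by -0.09, Cacna1b by -0.04, Cacna1e by 0.01 and Cacna1g by 0.03. The mean over the T-type genes differed by -0.05, with overlapping arrays. Cacna1i was at 9.45 ± 0.04 after surgery and 9.54 ± 0.08 in control, with overlapping arrays (adjusted p = 0.841).

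Here too 0 of 7 members were called, beside 0% of all genes, and 0 members had an unadjusted p under 0.05, against 6.21% of all genes (2.31% on the lower side). The groups did not overlap for Cacna1c alone, on the lower side, where 3.82% of all genes lay. Of the members 5 were lower, against 41.6% of all genes, with a median of -0.09 for the members and 0.02 for all genes. But with each array scaled to one median these 5 changed sign and all 7 were positive, at 0.03 to 0.20. That scaling moved the median of all genes to 0.10. Relative to that median, Cacna1c stood at -0.07, Cacna1a at -0.05, Cacna1h and Cacna1i at -0.02, Cacna1b at 0.02, Cacna1e at 0.05 and Cacna1g at 0.10. With control replicates 2 and 3 left out the median of the members was -0.12.

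**Figure D2:**
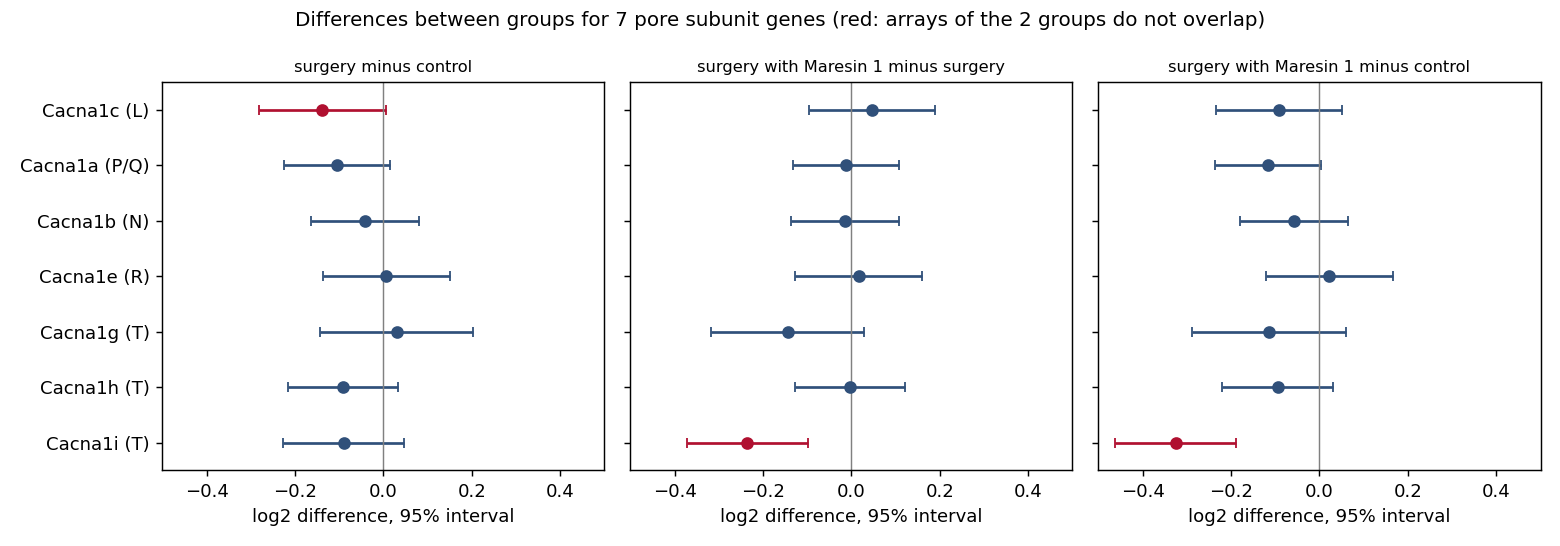
Log2 differences with 95% intervals (horizontal axis) for 7 pore subunit genes, in 1 panel per comparison. Red marks genes whose 2 groups of arrays do not overlap: Cacna1c for surgery minus control, and Cacna1i for both comparisons with Maresin 1, at -0.24 and -0.33, whose intervals exclude 0.

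**Figure D3:**
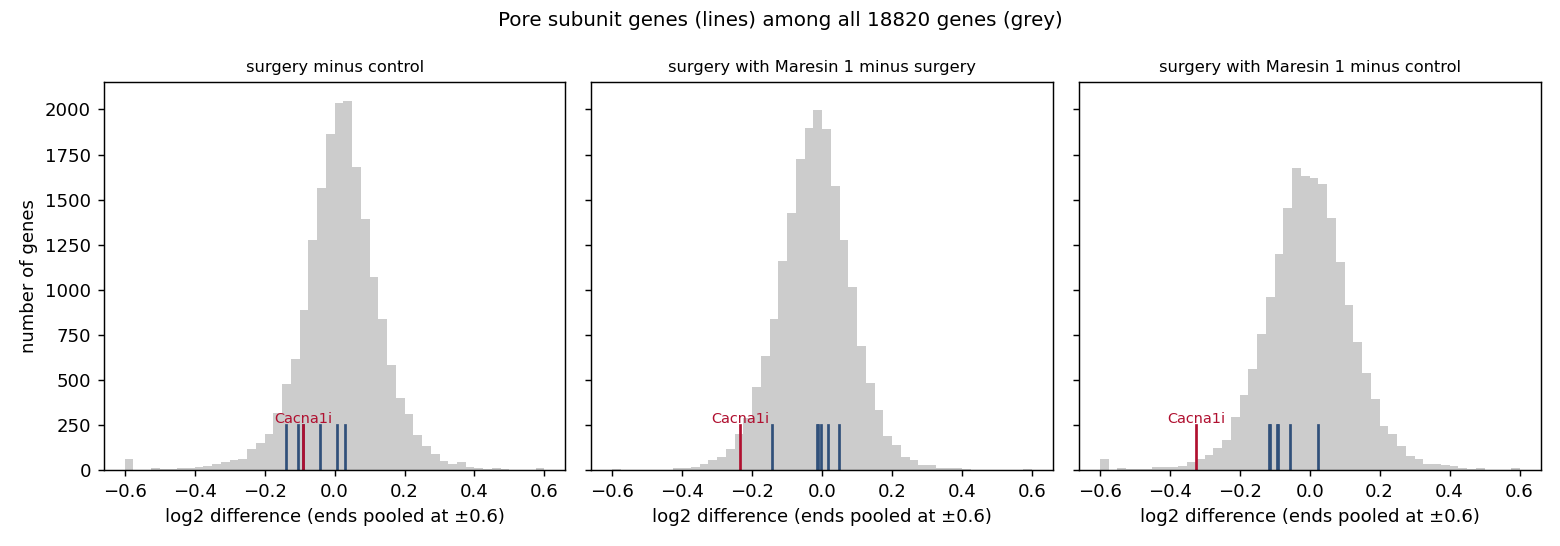
Log2 differences (horizontal axis) of all 18820 genes as grey counts (vertical axis), with each pore subunit gene as a line, Cacna1i in red. Cacna1i lies in the lower tail of both Maresin 1 comparisons, and the other members lie closer to 0 there.

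**Figure D4:**
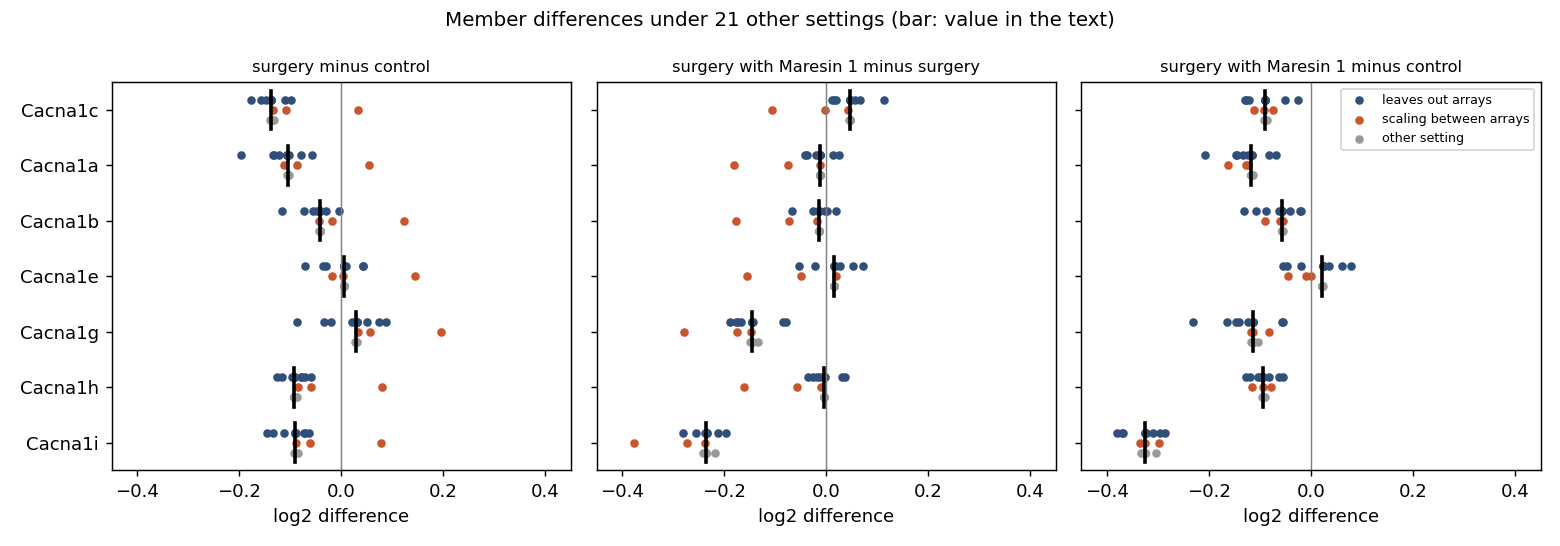
Log2 differences (horizontal axis) of 7 pore subunit genes under 21 other settings, in 1 panel per comparison. Blue points leave out arrays, orange points change the scaling between arrays, grey points change another setting, and black bars are the values in the text. In both Maresin 1 panels every Cacna1i point lies below 0, while the orange points of surgery minus control with one median lie above 0 for all members.

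The comparisons share arrays, so their values for a gene are given side by side without a measure of agreement. For Cacna1i the difference was -0.24 for Maresin 1 minus surgery, -0.33 for Maresin 1 minus control and -0.09 for surgery minus control. For Cacna1c the same comparisons gave 0.05, -0.09 and -0.14, and for Cacna1a -0.01, -0.12 and -0.10. Set against the mean of the other 6 members within each array, Cacna1i was at -0.04, -0.11 and -0.31 with Maresin 1, 0.04, 0.09 and 0.05 after surgery, and 0.09, 0.15 and 0.04 in control. These are deviations from the 9-array mean of that difference, and the Maresin 1 arrays lay below all others. The measure was chosen after the values were seen, so no test of it is given.

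Genes were also ranked by the root mean square difference between their centred profile over the 9 arrays and that of each member, among genes above the olfactory receptor mark that varied at least as much as the member. Closest to Cacna1i were Synpo, of the spine apparatus, at 0.064, Fbrs at 0.065 and Yjefn3 at 0.070, out of 2330 candidates. Daam1 was closest to Cacna1c (0.025), Arhgap23 to Cacna1a (0.038), Vps13d to Cacna1b (0.020), Peg3 to Cacna1e (0.028), Pkdcc to Cacna1g (0.061) and Irx6 to Cacna1h (0.025). Next to Cacna1a stood Unc13b, a priming factor of synaptic vesicles, at 0.042. Among the 3 closest to Cacna1b was Atp2b2, a plasma membrane calcium pump, at 0.028, and next to Cacna1e stood Grin2b, an NMDA receptor subunit, at 0.035. Of the 21 pairs of members, Cacna1b and Cacna1e were closest at 0.049, followed by Cacna1a and Cacna1b at 0.050. Cacna1i lay at 0.12 to 0.19 from the other members, and Cacna1g at 0.099 to 0.16. This distance also grows with the SD of a gene over the arrays, which was largest for Cacna1i (0.16). These values describe 9 arrays, and genes that share arrays are not independent.

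Genes that work with the pore were taken from 11 lists with 69 genes, of which 64 were measured. limma called 0 of them in each of the 3 comparisons. At an unadjusted p under 0.05 there were 6 genes between Maresin 1 and surgery (9.38% of the lists, against 5.66% of all genes), 12 between Maresin 1 and control (18.8%, against 11.5%) and 3 between surgery and control (4.69%, against 6.21%). The 6 genes of the Maresin 1 and surgery comparison were all lower with Maresin 1. The array as a whole leaned the same way: of the 5.66% of all genes, the larger part, 3.7%, was lower.

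Of the auxiliary subunits, all 4 alpha-2-delta genes and 2 of 4 beta genes were measured. Cacnb1, a beta subunit that escorts the pore to the membrane, was at 10.53, 10.58 and 10.53 with Maresin 1 and 10.60, 10.96 and 10.71 after surgery. The difference was -0.21 (SE 0.074, adjusted p = 0.859), and surgery replicate 2 was its highest array. Against control, where Cacnb1 was at 10.60, 10.63 and 10.54, the differences were -0.04 for Maresin 1 and 0.16 for surgery. Cacnb4 differed by 0.01 or less in every comparison. Cacna2d1, the alpha-2-delta subunit that binds gabapentin, was at 10.77 with Maresin 1 and 10.63 in control on average, a difference of 0.14 (SE 0.055, adjusted p = 0.323) without overlap, and Cacna2d4 differed by -0.25 (SE 0.11, adjusted p = 0.429).

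The gamma list holds Cacng1, the gamma subunit of the skeletal muscle calcium channel, its relative Cacng6, and the TARP genes, whose proteins escort AMPA receptors. Of its 8 genes 6 were lower with Maresin 1 than in control, against 51% of all genes, with Cacng1 (-0.12) and Cacng6 (-0.05) among the 6. Cacng2, or stargazin, was at 10.05, 10.02 and 10.01 with Maresin 1, 10.09, 10.16 and 10.18 after surgery, and 10.29, 10.25 and 10.14 in control. Its Maresin 1 arrays lay below all others, with differences of -0.12 against surgery (SE 0.053, adjusted p = 0.859) and -0.20 against control (adjusted p = 0.168). Cacng7 differed from control by -0.20 (SE 0.064, adjusted p = 0.234). Cacng8, named after its values were seen, differed by -0.13 (SE 0.046, adjusted p = 0.287).

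Among regulators, Tspan13, a tetraspanin reported to modulate N-type channels, was at 11.28, 11.32 and 11.38 with Maresin 1, 11.46, 11.42 and 11.42 after surgery, and 11.57, 11.44 and 11.48 in control. It differed by -0.10 from surgery and by -0.17 from control (SE 0.044, adjusted p = 0.859 and 0.168). Stac2, an adaptor that slows L-type inactivation, differed by -0.42 from surgery (SE 0.17, adjusted p = 0.859), with overlapping arrays and surgery replicate 2 at 10.51 as its highest. Against control, where it was named after its values were seen, Stac2 differed by -0.37 (adjusted p = 0.434). At the active zone, Stx1a, the SNARE that N- and P/Q-type channels bind, was at 9.06, 8.88 and 8.89 with Maresin 1, 9.22, 9.15 and 9.19 after surgery, and 9.21, 9.09 and 9.14 in control. Its Maresin 1 arrays lay below all others, at -0.25 from surgery (SE 0.065, adjusted p = 0.859) and -0.21 from control (adjusted p = 0.239). Snap25, its SNARE partner, differed by 0.04 in both comparisons, and the median of the active zone list was 0.01 against surgery and 0.00 against control.

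Downstream of calcium entry, the calcium-activated potassium channel gene Kcnn1 was at 7.12, 6.85 and 6.85 with Maresin 1 and 7.20, 7.27 and 7.16 after surgery, a difference of -0.27 (SE 0.10, adjusted p = 0.859) without overlap. Camk2g, a calmodulin-dependent kinase, differed by 0.16 between Maresin 1 and control (SE 0.058, adjusted p = 0.304). Of the extrusion genes, the calcium pump Atp2b4 differed from control by 0.30 with Maresin 1 (SE 0.11, adjusted p = 0.287) and by 0.25 after surgery. Atp2b3 differed from control by -0.15 with Maresin 1 and by -0.21 after surgery. It was at 10.68, 10.91 and 10.98 in control and 10.65, 10.59 and 10.70 after surgery, with overlapping arrays. Its high values were in control replicates 2 and 3, those with high choroid plexus signal, and a part of that tissue was not tested. The ubiquitin ligase gene Nedd4 differed from control by 0.12 with Maresin 1 (adjusted p = 0.338). In the related sodium channel family, Scn3a was at 7.94, 8.11 and 8.18 with Maresin 1, 7.91, 7.91 and 7.94 after surgery, and 7.78, 7.82 and 7.86 in control. Its difference from control with Maresin 1 was 0.25 (SE 0.077, adjusted p = 0.217), while the median of the sodium channel list with Nalcn was 0.00. Of the intracellular release channels, Ryr2 differed by -0.15 and Ryr3 by -0.23 between surgery and control (SE 0.071 and 0.15, adjusted p = 0.794 and 0.833 by limma). The Ryr2 arrays did not overlap, while those of Ryr3 did, with control replicate 3 at 8.03 below all surgery arrays. Of the intracellular release genes 4 of 5 were higher with Maresin 1 than after surgery (median 0.12), where 58.3% of all genes were lower.

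**Figure D5:**
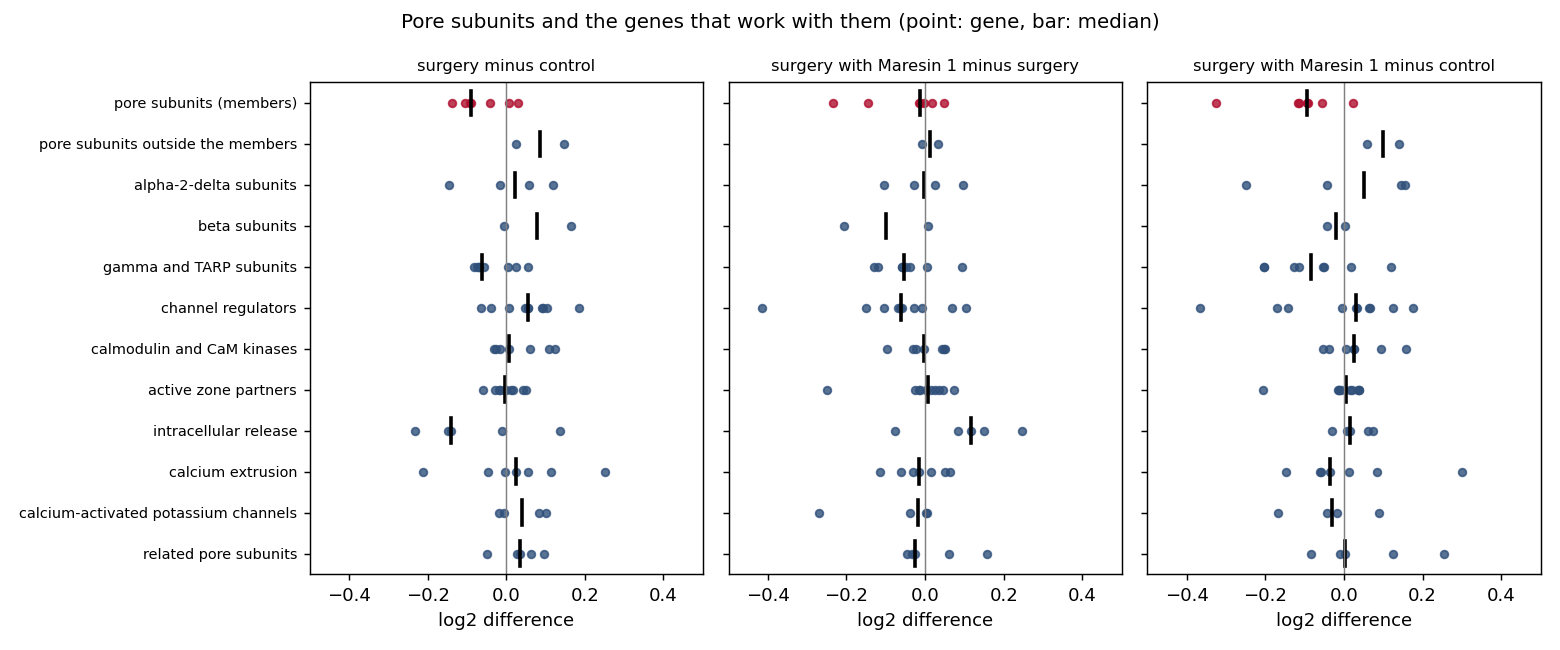
Log2 differences (horizontal axis) of the 7 pore subunits (top row, red) and of 11 lists of genes that work with them or are related (blue), in 1 panel per comparison. Points are genes and bars are medians. The list medians run from -0.14 to 0.12, and the lowest pore subunit point of both Maresin 1 panels is Cacna1i.

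Markers of neuron classes and neighbouring regions were read beside Cacna1i. Between Maresin 1 and surgery, where 58.3% of all genes were lower, 4 of 4 measured CA1 markers (median -0.16) and 5 of 6 thalamic markers (median -0.17) were lower. Lower too were 4 of 6 neocortical (median -0.09) and 6 of 8 interneuron markers (median -0.06), while 5 of 6 dentate granule markers were higher (median 0.24). Of the CA3 markers 3 of 5 were lower (median -0.0036), and of the pan-neuronal markers 2 of 4 (median -0.0093). Summed signals of the CA1 markers were 4251 to 5296 with Maresin 1, 5240.3 to 5607 after surgery and 5134 to 5298 in control. Those of the thalamic markers were 1579 to 1961 with Maresin 1, 1821 to 1942 after surgery and 1600 to 2122 in control. For dentate granule markers they were 4851 to 5275 with Maresin 1, 4215 to 4327 after surgery and 3653 to 4884 in control. Neocortical markers summed to 3480 to 3792 with Maresin 1, 3775 to 3852 after surgery and 3261 to 3860.2 in control, and interneuron markers to 7080.4 to 8482 with Maresin 1, 7745 to 7925 after surgery and 7336 to 8297 in control. No marker of these lists was at 0 in any array. None of these markers was called, and their part in the Cacna1i difference was not tested.

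Markers of smooth muscle cells and pericytes, which also express L- and T-type channels, were read beside Cacna1c and Cacna1h. All 6 were higher after surgery than in control, with a median of 0.36 and no overlap, where 7.71% of all genes were higher without overlap, at summed signals of 1664 to 1696 after surgery and 1147 to 1263 in control. With Maresin 1 the sum was 1429 to 1756. Endothelial markers were also higher: 5 of 5 after surgery than in control (median 0.38) and 5 of 5 with Maresin 1 than in control (median 0.40). Their sums were 1706 to 2295 with Maresin 1, 1906 to 2076 after surgery and 1459 to 1554 in control. The surgery minus control differences of -0.14 for Cacna1c and -0.09 for Cacna1h stand beside these values and did not pass the test. With each array scaled to one median they were 0.03 and 0.08, where the median of all genes was 0.10. Relative to that median they were -0.07 and -0.02. None of the vascular markers was called, and the part of these cells in the channel levels was not tested.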

How the data were processed

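Hippocampal RNA was profiled on 9 Affymetrix arrays (6 µg total RNA each), 3 per group, grouped by title. The authors deposited linear intensity values for 35556 probe sets, and the submitters' processing notes name Affymetrix Expression Console. Its version was not given in the sources used here. Array medians differed, so quantile normalization came first, followed by log2(signal + 16). Of the probe sets, 21218 name 1 gene, 1881 several and 12457 none in the probe table. Symbols were updated through gene identifiers for 21185. The highest-mean probe set stood for each of 18820 genes, with no filter on low signals. limma 3.58.1 (R 4.3.3) fitted 1 model over all 9 arrays with a variance prior that follows the level. A call needed an adjusted p under 0.05 (Benjamini-Hochberg, all genes together). The fit was tested on simulated data. Errors are SD for levels and SE for differences, and depth has no meaning for arrays: 3 per group limits the precision. The members and lists were chosen with earlier results of these data known. Named genes are the members, the 3 genes most like each, and up to 2 genes per partner list and comparison by smallest p, of which those with an unadjusted p under 0.05 and a few others are given. The p-values set a difference between groups against the spread of these arrays within groups, moderated by the variance prior. Alternatives covered scaling, the added constant, filters, probe set choice, arrays in the fit, the variance prior, a replicate block and left-out arrays.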

Additional observations from a re-analysis of the deposited data

How the results depend on the processing

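The 7 members were refitted under 21 alternatives per comparison, and 0 members were called in any of them. Cacna1i stayed lower with Maresin 1 in all 21, by -0.38 to -0.20 against surgery (adjusted p 0.307 to 1.00) and by -0.38 to -0.29 against control. For surgery minus control, scaling each array to one median turned Cacna1c (0.032), Cacna1a (0.054), Cacna1b (0.12), Cacna1h (0.081) and Cacna1i (0.077) positive. That scaling moved the median of the members to 0.081, the T-type mean to 0.12 and the median of all genes to 0.10. Cacna1e turned to -0.018 with cyclic loess and -0.071 without control replicates 2 and 3, and ran from -0.035 (without control replicate 2; -0.030 without surgery replicate 3) to 0.044 when 1 array was left out. Cacna1g turned to -0.086 without control replicates 2 and 3, and ran from -0.034 (without surgery replicate 2; -0.020 without control replicate 2) to 0.087 when 1 array was left out.

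For Maresin 1 minus surgery, median scaling gave -0.11 for Cacna1c, -0.15 for Cacna1e, -0.18 for the median of the members and -0.27 for the T-type mean, and no normalization gave -0.0028 for Cacna1c, -0.049 for Cacna1e and -0.073 for that median. With 1 array left out, Cacna1a ran from -0.041 to 0.025, Cacna1b from -0.066 to 0.020, Cacna1e from -0.053 to 0.072 and Cacna1h from -0.035 to 0.037. The arrays that turned these signs were surgery replicate 3 and Maresin 1 replicate 2 for Cacna1a, Maresin 1 replicates 1 and 2 for Cacna1b, surgery replicate 1 and Maresin 1 replicate 3 for Cacna1e, and surgery replicate 2 and Maresin 1 replicate 2 for Cacna1h. For Maresin 1 minus control, Cacna1e turned to -0.0088 with median scaling, -0.045 with no normalization and -0.055 without control replicates 2 and 3, and ran from -0.047 (without Maresin 1 replicate 3; -0.019 without control replicate 2) to 0.078 when 1 array was left out.

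Called genes between surgery and control numbered 0 by limma, against 1168 at an unadjusted p under 0.05, and 37 with median scaling and 42 with no normalization. Leaving out 1 array gave 0 to 167, the highest without control replicate 1. Between Maresin 1 and control 16 were called, against 38 with median scaling, 43 with no normalization and 4 without control replicates 2 and 3. The count was 0 with all probe sets tested, with only the 2 groups in the fit and with no trend in the prior. Leaving out 1 array gave 0 to 244: 244 without control replicate 1, 15 without control replicate 3, 3 and 2 without surgery replicates 1 and 2, and 0 without each of the other 5. With the replicate block it was 0, and the Cacna1i difference from control stayed at -0.33 (adjusted p = 0.178). Same-numbered arrays of different groups did not deviate together (correlations of -0.24 to 0.05 across genes). A weak shared effect could be missed with 3 arrays per group, so whether the numbers pair the mice is not settled. The causes of these shifts were not tested. The number of arrays, 3 per group, limits the precision.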
